A study of Mus musculus with 27 samples.

Results

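The 10 genes described here encode chaperones and folding enzymes of the endoplasmic reticulum (ER), and were taken as the rows of the count tables whose Ensembl identifier maps to the mouse symbols Hspa5, Hsp90b1, Pdia3, Pdia4, Pdia6, Calr, Canx, Sdf2l1, Manf and Creld2, out of 52636 genes counted. They were measured by total RNA sequencing in the brain of adult mice, about 2.5 months old, on the 129S1 background, which were either wild-type or Igf2enh-/-, that is, homozygous for the deletion of an intergenic fragment between H19 and Igf2. The deletion was made by gene targeting in ES cells, removal of the selection cassette by Hprt-CRE left a loxP site in place, and the fragment is missing from every cell and not from a chosen cell type. The 27 libraries comprised 6 wild-type and 6 Igf2enh-/- libraries from frontal cortex (3 females and 3 males each), and 7 wild-type (3 females, 4 males) and 8 Igf2enh-/- libraries (4 females, 4 males) from striatum. The labels give a sex and a genotype for each library but do not link the frontal cortex library of a mouse to its striatum library, and the p-values below measure the spread between these libraries.

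Proteins that enter the secretory pathway, among them neurotransmitter receptors, ion channels and secreted growth factors, are folded in the ER lumen before they travel to the Golgi. When unfolded proteins accumulate there, the sensors ATF6, IRE1 and PERK start the unfolded protein response, and ATF6 and XBP1 raise transcription of the chaperone genes through the ER stress response element, in which a CCAAT box bound by NF-Y is followed at a fixed distance by CCACG. Hspa5 encodes BiP, the ER member of the Hsp70 family, and Hsp90b1 encodes its Hsp90 counterpart. Pdia3, Pdia4 and Pdia6 are protein disulfide isomerases, Calr (calreticulin) and Canx (calnexin) are the lectin chaperones that hold newly made glycoproteins, and Sdf2l1, Manf and Creld2 are small ER-resident proteins known as targets of the same response.

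Promoter sequences are shown because most of these genes hold this element there. In the RefSeq promoter windows of the GRCm38.p6 assembly, 250 bases before to 50 bases after each annotated start, 9 of the 10 genes had an entry, and Manf had none. The element, searched on both strands as CCAAT, 9 bases of any kind and CCACG, was present in 6 of these 9 windows and in 0.119% of all 32851 windows. Since the genes were taken as chaperones of the response that acts through this element, the difference is a description and not a test. The 250 bases before the start of Hspa5 are given in the direction of transcription, 5′ to 3′, with the fixed letters of the element in capitals.

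Hspa5 (chr2:34771840-34772089, plus strand): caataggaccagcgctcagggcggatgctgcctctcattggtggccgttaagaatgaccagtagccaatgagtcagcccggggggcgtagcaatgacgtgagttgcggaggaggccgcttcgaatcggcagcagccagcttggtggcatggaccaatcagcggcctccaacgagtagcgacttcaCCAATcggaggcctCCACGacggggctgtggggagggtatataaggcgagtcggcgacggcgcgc

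The Hspa5 element began 65 bases before the start and was read in the direction of the gene. The same element with up to 20 bases on each side is given next for the 5 other genes that held it, again on the gene's strand with its fixed letters in capitals, and it appears as CGTGG followed by ATTGG where it lies on the opposite strand.

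Hsp90b1 (chr10:86705618-86705676, minus strand): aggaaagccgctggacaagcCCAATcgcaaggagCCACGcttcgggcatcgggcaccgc
Hsp90b1 (chr10:86705513-86705571, minus strand): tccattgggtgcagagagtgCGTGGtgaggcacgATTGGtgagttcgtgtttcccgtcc
Pdia6 (chr12:17266471-17266529, plus strand): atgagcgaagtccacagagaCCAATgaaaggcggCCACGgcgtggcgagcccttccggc
Calr (chr8:84847055-84847113, minus strand): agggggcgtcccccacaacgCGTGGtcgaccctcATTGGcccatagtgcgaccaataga
Canx (chr11:50325780-50325838, minus strand): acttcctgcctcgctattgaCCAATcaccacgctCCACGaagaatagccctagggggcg
Creld2 (chr15:88819500-88819558, plus strand): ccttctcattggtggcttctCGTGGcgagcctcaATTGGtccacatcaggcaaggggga

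Hsp90b1 held 2 copies, which began 212 and 107 bases before the start and pointed in opposite directions. The element began 98 bases before the start in Pdia6 and 145 in Canx, where it followed the direction of the gene, and 162 in Calr and 126 in Creld2, where it lay on the other strand. Pdia3, Pdia4 and Sdf2l1 did not contain these letters in this window, although each held CCAAT, and Pdia4 and Sdf2l1 also CCACG. Singly, CCAAT was found in 37.4% and CCACG in 32.8% of all windows. ERSE-II (ATTGG, any base and CCACG, in 0.0365% of all windows), the unfolded protein response element (TGACGTGG, 0.676%), the cyclic AMP response element (TGACGTCA, 1.79%) and the heat shock element (GAA, TTC and GAA with 2 bases between each, 0.603%) were in none of the 9 windows, in either direction.

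**Figure D1:**
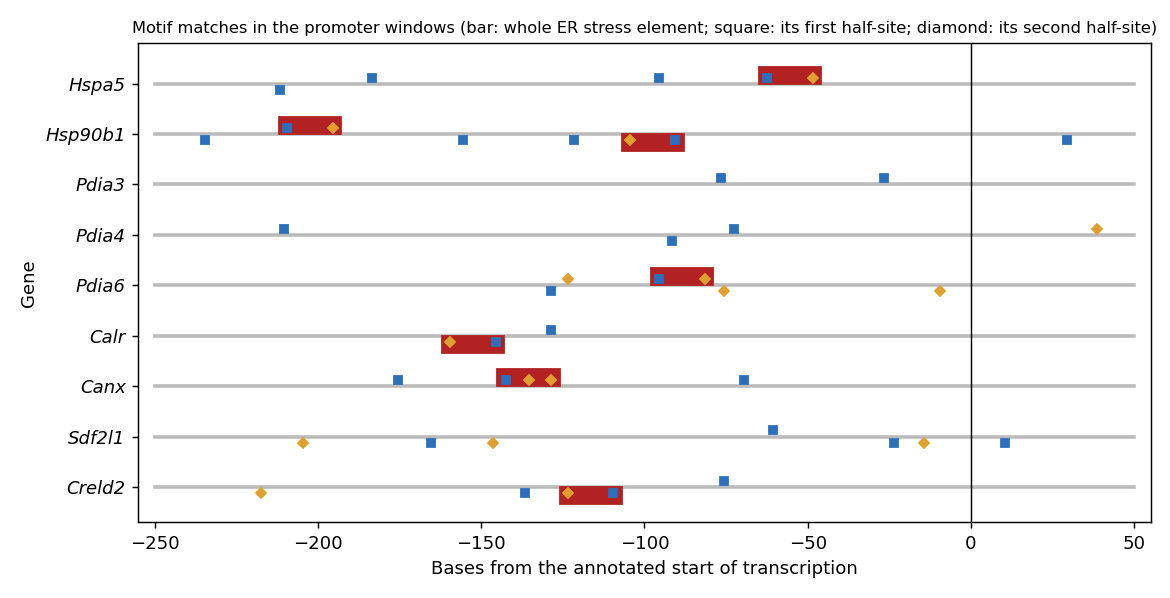
Position of motif matches in the 9 promoter windows, in bases from the annotated start (x axis), 1 line per gene (y axis). Bars mark the whole ER stress response element, squares CCAAT and diamonds CCACG, with symbols above the line on the gene's strand and below it on the opposite strand. The whole element lies between 212 and 47 bases before the start in 6 genes.

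Library totals ranged from 23686945 to 33926904 counts, and the lowest count of any of the 10 genes in any library was 161 (Sdf2l1), so that all 10 passed the minimum of 1 CPM (counts scaled to a common library total) in all 27 libraries. All levels below are CPM scaled by TMM, a library scaling that assumes most genes do not differ, over the 27 libraries. The deleted fragment lies outside genes, so that the counts do not show the deletion itself. Igf2, the gene next to it, was at 52.0 to 107 CPM in wild-type and 88.4 to 173 CPM in Igf2enh-/- frontal cortex, and at 34.1 to 44.0 CPM in wild-type and 46.0 to 258 CPM in Igf2enh-/- striatum, with library 15 the highest. Region labels were checked on marker lists. The summed level of 10 medium spiny neuron markers was 3800 to 10500 CPM in striatum and 178 to 259 CPM in frontal cortex, and that of 10 cortical projection neuron markers 3250 to 3620 CPM in frontal cortex and 369 to 1860 CPM in striatum. Wild-type striatum library 20 had both the lowest medium spiny and the highest cortical sum of its region. Igf2enh-/- striatum library 15 carried 4750 CPM of 17 choroid plexus markers, against 174 to 373 CPM in the wild-type striatum libraries. Oligodendrocyte markers had a log2 fold change below 0 in Igf2enh-/- mice for 10 of 10 genes in both regions (median -0.18 in frontal cortex and -0.30 in striatum), with 0 of 10 past the test. By genotype, 0 markers of the 9 cell types passed in either region, and the median log2 fold change was 0.046 and 0.048 for astrocytes, 0.069 and -0.025 for microglia, -0.037 and -0.042 for endothelium, and 0.12 and 0.19 for the 4 ependymal markers tested, in frontal cortex and striatum. In striatum, the log2 fold change was above 0 for 0 of 7 cortical projection neuron markers tested (median -0.26), 4 of 4 choroid plexus markers (median 0.89), 11 of 13 meningeal fibroblast markers (median 0.13) and 9 of 10 medium spiny neuron markers (median 0.035). The choroid plexus value includes library 15. By summed level of these markers, the median was 221 CPM in Igf2enh-/- and 269 CPM in wild-type striatum. In frontal cortex the log2 fold change was above 0 for 3 of 10 cortical projection neuron markers (median -0.047). Only meningeal fibroblast markers in frontal cortex and choroid plexus markers in striatum were tried as a further term in the fits. Otherwise the part of cell composition in the results below was not tested. In tissue homogenates fewer cells of a type cannot be told apart from less RNA per cell.

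Per kilobase of annotated exon, a scale that rests on the exon lengths used, the order was nearly the same in all 4 groups. In wild-type frontal cortex, Calr had 121 ± 5.5 CPM per kb (mean ± SD, n = 6) and Canx 103 ± 4.1. Hspa5 (75.0 ± 1.4 CPM per kb) and Hsp90b1 (74.9 ± 2.9) came next and did not differ beyond their spread. Pdia3 followed with 63.5 ± 1.4 CPM per kb, well above Pdia6 (25.4 ± 0.51) and Pdia4 (15.6 ± 0.76). Manf (10.3 ± 0.63 CPM per kb), Creld2 (9.13 ± 0.97) and Sdf2l1 (8.45 ± 0.80) were lowest, and each overlapped its neighbour in spread. The exon length used for Manf, 3524 bases, is longer than its whole RefSeq gene (chr9:106888753-106891938). Its value per kb may therefore be too low, and its rank is uncertain. The lectin chaperones, BiP and the Hsp90 protein were thus several-fold above Creld2 and Sdf2l1. With the same exon lengths, the same 7 genes led in wild-type striatum, from Calr at 125 ± 8.0 CPM per kb (n = 7) to Pdia4 at 16.6 ± 1.1. In sum, the 10 genes took 1739 ± 34.1 CPM in wild-type frontal cortex and 1709 ± 59.8 CPM in wild-type striatum.

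The first comparison was of genotypes in frontal cortex. Calr and Pdia3 were higher in Igf2enh-/- mice, by 1.16-fold and 1.12-fold, and the log2 fold change of all 10 chaperone genes was above 0, against 50.4% of all genes tested. The median log2 fold change of the 10 genes was 0.16, or 1.12-fold, with a range of 0.06 to 0.21, while the median of all 13936 genes was 0.00074. With edgeR's quasi-likelihood test and Benjamini-Hochberg adjustment over all genes, 2 of the 10 passed an adjusted p of 0.05, against 0.380% of all genes. At an unadjusted p under 0.05, 7 of 10 were higher, against 6.87% of all genes. The 10 genes were chosen with earlier results of these data known, and most of their pairs varied together between libraries. These counts are therefore a description and not independent results of 10 genes. The likelihood ratio test and DESeq2, which also called more of all genes, called 4 of the 10, adding Hsp90b1 and Pdia6. Limma-voom called 2 of the 10. Over the alternatives with every library kept, 9 to 459 of all genes were called. The share of 0.380% therefore holds for the quasi-likelihood test only.

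**Figure D2:**
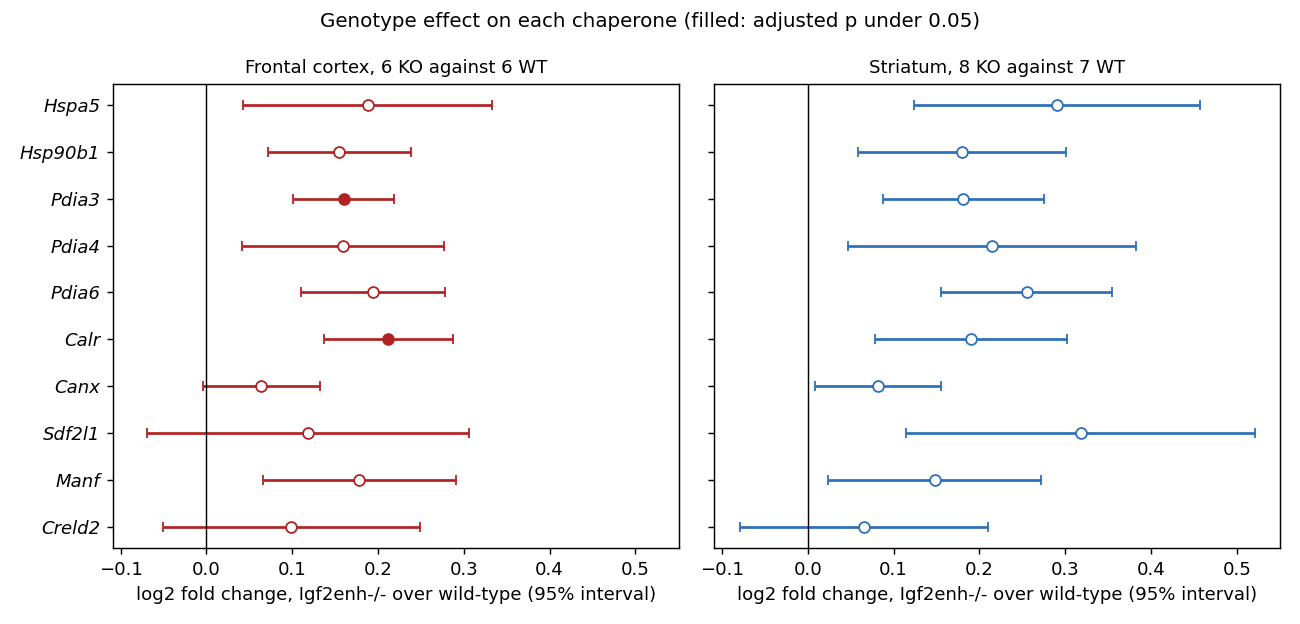
Genotype effect on each gene as log2 fold change (x axis, Igf2enh-/- over wild-type; points with 95% confidence interval) in frontal cortex (left, 6 against 6 libraries) and striatum (right, 8 against 7). Filled points passed an adjusted p of 0.05. All 20 points lie to the right of 0, between 0.06 and 0.32, and those of Calr and Pdia3 in frontal cortex are filled.

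Calr, which binds glycoproteins and calcium in the ER lumen, ranged from 325 to 363 CPM (median 353) in the wild-type libraries and from 386 to 425 CPM (median 403) in the Igf2enh-/- libraries. Every Igf2enh-/- library was above every wild-type library, and the log2 fold change was 0.21 ± 0.035 (SE, adjusted p = 0.0270). Pdia3, the disulfide isomerase that works with the lectin chaperones, ranged from 195 to 207 CPM (median 197) in wild-type and from 212 to 227 CPM (median 226) in Igf2enh-/- mice. Again the groups did not overlap, and the log2 fold change was 0.16 ± 0.028 (adjusted p = 0.0285). Such complete separation, with the Igf2enh-/- libraries higher, was seen in 0.660% of all genes tested. Both calls rested on the full set of libraries, since neither gene passed (adjusted p 0.0625 to 0.0850) when any 1 of libraries 4, 6, 8, 9, 10 or 12 was left out. With the meningeal fibroblast markers as a further term, Calr had a log2 fold change of 0.20 (adjusted p = 0.108) and Pdia3 of 0.145 (adjusted p = 0.139). With the RNA integrity number as a term, Calr had 0.185 (adjusted p = 0.0498) and Pdia3 0.145 (adjusted p = 0.0668). Of the 14 meningeal markers tested, 13 had a log2 fold change above 0 (median 0.21) and 0 passed, and their sum over 15 markers was 105 to 241 CPM in wild-type and 144 to 229 CPM in Igf2enh-/- libraries.

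Among the disulfide isomerases, Pdia6 lay just outside the threshold (log2 fold change 0.19 ± 0.039, adjusted p = 0.0508). Its wild-type libraries ranged from 92.8 to 98.5 CPM (median 94.7) and its Igf2enh-/- libraries from 96.4 to 117 CPM (median 109.6). Only Igf2enh-/- library 11 fell within the wild-type range, and without that library Pdia6 passed the test (log2 fold change 0.225, adjusted p = 0.0136). With any other frontal cortex library left out Pdia6 did not pass (adjusted p up to 0.146). Pdia4 was at 35.9 to 41.2 CPM (median 38.7) in wild-type and 38.0 to 46.9 CPM (median 43.9) in Igf2enh-/- mice, with 4 of 6 Igf2enh-/- libraries above the wild-type range (log2 fold change 0.16 ± 0.055, adjusted p = 0.227).

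Hspa5 was tightly grouped in wild-type frontal cortex, from 255 to 268 CPM (median 264), and widely spread in Igf2enh-/- mice, from 255 to 350 CPM (median 292). Thus 5 of 6 Igf2enh-/- libraries exceeded every wild-type library while library 11 stood at the bottom of the range (log2 fold change 0.19 ± 0.068, adjusted p = 0.245). Hsp90b1 ranged from 291 to 323 CPM (median 300.3) in wild-type and from 311 to 351 CPM (median 346) in Igf2enh-/- mice (log2 fold change 0.155 ± 0.039, adjusted p = 0.0940). Its groups overlapped through wild-type library 2 and Igf2enh-/- libraries 5 and 11. Manf, a secreted and ER-retained factor known for its support of dopamine neurons, was at 33.3 to 38.5 CPM (median 37.2) in wild-type and 37.9 to 44.8 CPM (median 40.9) in Igf2enh-/- libraries (log2 fold change 0.18 ± 0.053, adjusted p = 0.160).

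The smallest differences in frontal cortex were those of Canx, Creld2 and Sdf2l1. Canx, the membrane-bound lectin chaperone and the gene with the highest CPM of the 10, was at 411 to 455 CPM in wild-type and 437 to 463 CPM in Igf2enh-/- mice (log2 fold change 0.06 ± 0.032, 95% interval -0.0035 to 0.13). Creld2 ranged from 10.8 to 14.3 CPM and from 12.4 to 14.2 CPM (log2 fold change 0.10 ± 0.070), and no Igf2enh-/- library exceeded the highest wild-type library. Sdf2l1, the least abundant member, ranged from 8.18 to 10.8 CPM and from 8.87 to 12.2 CPM (log2 fold change 0.12 ± 0.088). The 95% intervals of all 3 genes included 0, and that of Sdf2l1 was the widest, from -0.07 to 0.31.

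**Figure D3:**
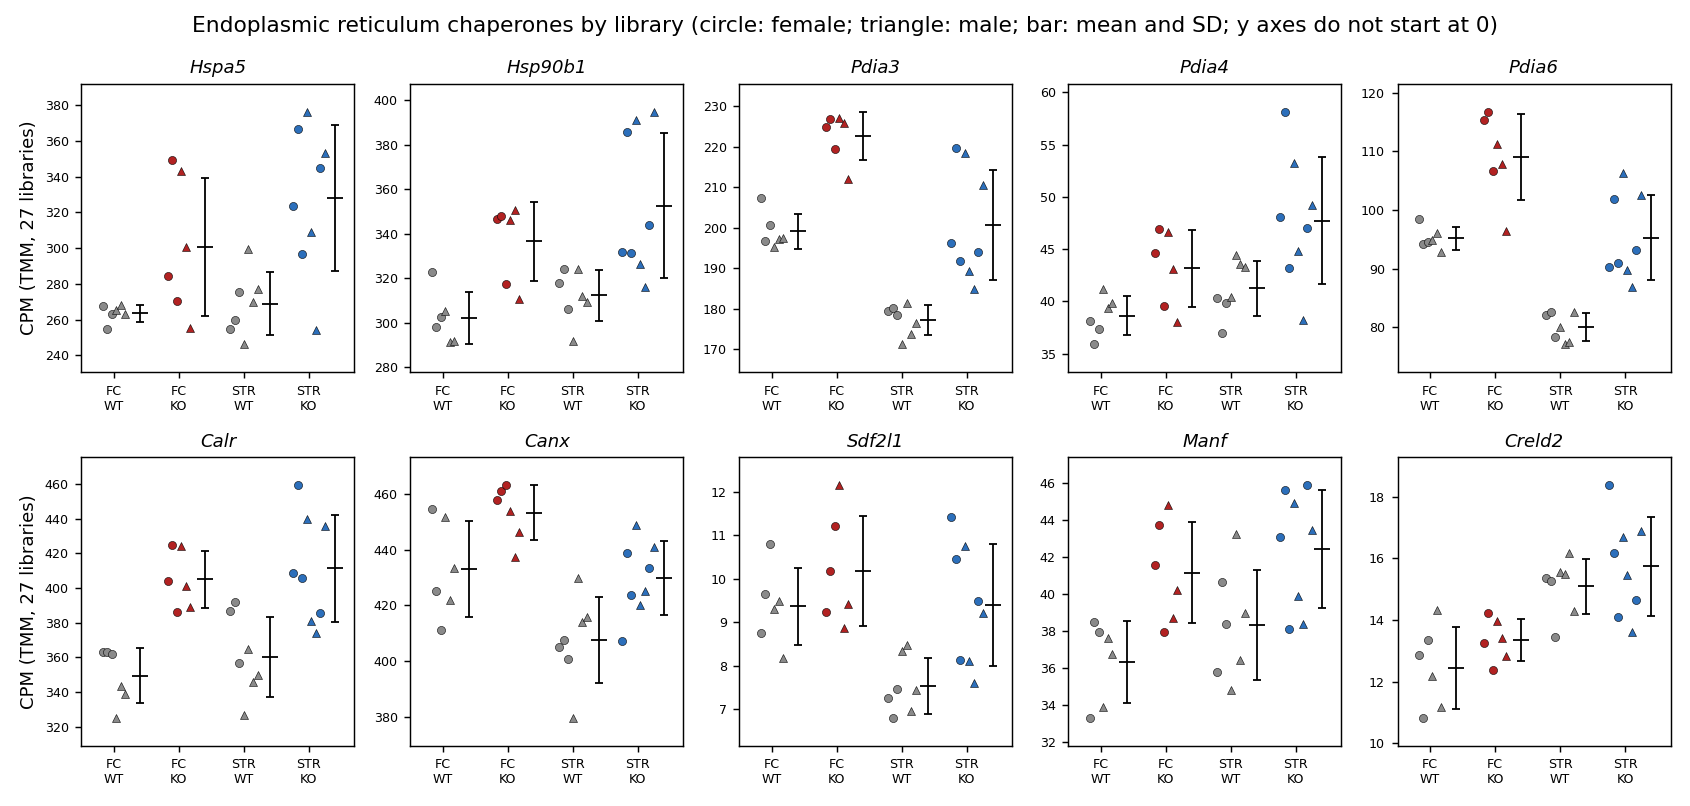
CPM (y axes, which do not start at 0) of the 10 genes in each library, by group (x axes; FC frontal cortex, STR striatum, WT wild-type, KO Igf2enh-/-). Circles are females, triangles males, and bars the mean and SD of 6, 6, 7 and 8 libraries. The KO points sit above the WT points without overlap for Calr in frontal cortex, Pdia6 in striatum, and Pdia3 in both regions.

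In striatum, which receives the dense dopamine projection of the midbrain, all 10 log2 fold changes were again above 0, against 50.2% of all genes. Their median was 0.19 (1.14-fold) and their range 0.07 to 0.32, while the median of all 13875 genes was 0.00041. None of the 10 passed the adjusted threshold with edgeR's quasi-likelihood test, which only 0.0360% of all genes did, whereas 9 of 10 had an unadjusted p under 0.05 and were higher, against 4.94% of all genes. As in frontal cortex, these counts are a description of genes that vary together and were chosen with earlier results known. By other tools, edgeR's likelihood ratio test called Pdia6, DESeq2 called Hspa5, Pdia3 and Pdia6, and limma-voom called 0. Over the alternatives with every library kept, 3 to 112 of all genes were called in striatum.

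Pdia6 came closest in striatum, with 77.1 to 82.7 CPM (median 80.0) in the 7 wild-type and 86.9 to 106 CPM (median 92.1) in the 8 Igf2enh-/- libraries. The groups did not overlap, a separation seen in 0.101% of all genes, and the log2 fold change was 0.255 ± 0.047 (adjusted p = 0.0628). Without Igf2enh-/- library 23, Pdia6 passed the test (log2 fold change 0.28, adjusted p = 0.0494). With any other striatum library left out Pdia6 did not pass (adjusted p up to 0.186). Pdia3 was also separated, at 171 to 182 CPM (median 179) against 185 to 219.7 CPM (median 195), with a log2 fold change of 0.18 ± 0.044 (adjusted p = 0.174). Pdia4 ranged from 37.0 to 44.4 CPM (median 40.4) in wild-type and from 38.2 to 58.2 CPM (median 47.5) in Igf2enh-/- libraries, which overlapped through 2 of 8 libraries (log2 fold change 0.215 ± 0.079, adjusted p = 0.385).

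Hspa5 had the second highest log2 fold change in striatum, 0.29 ± 0.078 (adjusted p = 0.238). Its wild-type libraries were at 246 to 300 CPM (median 270) and its Igf2enh-/- libraries at 254 to 377 CPM (median 334), of which 6 of 8 exceeded every wild-type library and library 23 was the lowest. Sdf2l1, which is a co-factor of BiP, had the highest log2 fold change (0.32 ± 0.095, adjusted p = 0.290), with 6.80 to 8.48 CPM (median 7.43) in wild-type and 7.61 to 11.4 CPM (median 9.34) in Igf2enh-/- libraries. Calr was at 327 to 392 CPM (median 357) and 374 to 459 CPM (median 407), and 5 of 8 Igf2enh-/- libraries exceeded every wild-type library (log2 fold change 0.19 ± 0.053, adjusted p = 0.257).

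Hsp90b1 ranged from 292 to 324 CPM (median 312) in wild-type striatum and from 316 to 395 CPM (median 338) in Igf2enh-/- striatum, with 7 of 8 libraries above the wild-type range (log2 fold change 0.18 ± 0.057, adjusted p = 0.326). Manf was at 34.8 to 43.3 CPM (median 38.4) and 38.1 to 45.9 CPM (median 43.3), with a log2 fold change of 0.15 ± 0.058 (adjusted p = 0.426). The differences of Canx (0.08 ± 0.034, adjusted p = 0.447) and Creld2 (0.07 ± 0.068, adjusted p = 0.810) were the smallest, as in frontal cortex, and in both genes the groups overlapped. Without library 15, the one with choroid plexus signal, all 10 log2 fold changes stayed above 0, with a median of 0.16. Without library 20 their median was 0.17, also with 10 of 10 above 0.

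The summed level of the 10 genes shows the same pattern by library. In frontal cortex it was 1714 to 1807 CPM (median 1730) in wild-type and 1810 to 2042 CPM (median 1935) in Igf2enh-/- libraries, and in striatum 1595 to 1789 CPM (median 1715) and 1739 to 2107 CPM (median 1896). The frontal cortex groups just failed to touch, at wild-type library 2 and Igf2enh-/- library 11, whereas in striatum Igf2enh-/- library 23 lay within the wild-type range. Igf2enh-/- libraries 3 and 7 were the highest in frontal cortex, and libraries 15, 19 and 27 in striatum.

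The spread between libraries was also compared by genotype. In frontal cortex the coefficient of variation was higher in Igf2enh-/- than in wild-type libraries for 7 of 10 genes (median 5.96% against 4.26%), which is near the 61.7% of all genes tested. In striatum it was higher for 8 of 10 genes (median 8.41% against 6.17%), against 31.0% of all genes, among which the wild-type libraries varied more. The contrast was widest for Hspa5 in frontal cortex, with 1.82% in wild-type and 12.9% in Igf2enh-/- libraries. These counts are a description, and no test of the spread was made.

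The genotype effect was not shown to differ between the regions. In the fit of all 27 libraries, the region by genotype term passed for 0 of 10 chaperones and 0 of 13414 genes with edgeR's quasi-likelihood test, as with the likelihood ratio test, DESeq2 and limma-voom, while 405 of all genes and 0 of the 10 had an unadjusted p under 0.05. The largest term was that of Sdf2l1, 0.19 with a 95% interval from -0.08 to 0.46. For Calr the interval was -0.16 to 0.10, and for Pdia6 -0.08 to 0.18.

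Both sexes were examined, since each group held females and males. Taken by sex, the log2 fold changes of the 10 genes were above 0 in females and in males of both regions, with medians of 0.15 in females and 0.17 in males of frontal cortex and of 0.18 and 0.19 in striatum. In frontal cortex males Calr passed by itself (log2 fold change 0.27 ± 0.047, adjusted p = 0.0454), and in females it had 0.16 ± 0.047 (adjusted p = 0.314). The genotype by sex term passed for 0 of 10 genes in either region, with 0 of 10 at an unadjusted p under 0.05, and the same was true of the sex effect itself, whose log2 values (male over female) lay between -0.06 and 0.04 in frontal cortex and between -0.08 and 0.02 in striatum. DESeq2, limma-voom and the likelihood ratio test also called 0 of the 10 for sex or its interaction.

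Between regions, the chaperones did not move as one. In wild-type mice, 5 of 10 differed between striatum and frontal cortex, against 67.7% of all genes tested. Pdia3, Pdia6, Canx and Sdf2l1 were lower in striatum and Creld2 was higher. Pdia6 had 92.8 to 98.5 CPM in frontal cortex and 77.1 to 82.7 CPM in striatum (log2 fold change -0.25 ± 0.045, adjusted p = 3.49e-05). Pdia3 was at 195 to 207 CPM and 171 to 182 CPM (log2 fold change -0.165 ± 0.036, adjusted p = 0.000275). The share of all genes whose ranges did not overlap between regions was not counted. Sdf2l1 fell by 0.31 ± 0.095 on the log2 scale (adjusted p = 0.00604), from a median of 9.40 to 7.43 CPM. Creld2 was higher by 0.28 ± 0.069 on the log2 scale (adjusted p = 0.00108), from a median of 12.5 to 15.4 CPM. Canx had a log2 fold change of -0.09 ± 0.032 (adjusted p = 0.0175), a call that was lost without library 2 or library 8 (adjusted p 0.0668 and 0.0659), with total-count scaling and with no filter on low counts.

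For Hspa5, Hsp90b1, Pdia4, Calr and Manf no region difference passed in wild-type mice. The 95% interval of their log2 fold change was widest for Hspa5, from -0.13 to 0.19, and narrowest for Calr, from -0.04 to 0.15. Within the disulfide isomerases, then, Pdia3 and Pdia6 were lower in striatum and Pdia4 did not pass (0.10 ± 0.072, 95% interval -0.05 to 0.24).

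In Igf2enh-/- mice 4 of 10 differed between regions, against 68.9% of all genes. Pdia3 (log2 fold change -0.15 ± 0.035, adjusted p = 0.000550), Pdia6 (-0.19 ± 0.044, adjusted p = 0.000378) and Canx (-0.08 ± 0.031, adjusted p = 0.0312) were lower in striatum, and Creld2 was higher (0.24 ± 0.067, adjusted p = 0.00281). Sdf2l1, with -0.115 ± 0.090 (adjusted p = 0.261), did not pass in these mice. The Canx call was lost when any 1 of libraries 1, 3, 4, 5, 7, 13, 14, 21, 23 or 26 was left out (adjusted p up to 0.100), and with the likelihood ratio test, total-count scaling, edgeR's own expression filter or no filter on low counts (adjusted p 0.0626 to 0.178). Conversely, Hspa5 passed as higher in striatum without library 3, 7 or 23 (log2 fold change 0.18 to 0.19), and Pdia4 without library 3, 7, 17 or 23 (0.165 to 0.20). With the remaining libraries left out in turn, adjusted p reached 0.306 for Hspa5 and 0.174 for Pdia4.

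The other genes of the ER folding pathway were examined as lists. For scale, 0.380% of all genes in frontal cortex and 0.0360% in striatum passed edgeR's quasi-likelihood test. The log2 fold change was above 0 for 50.4% and 50.2% of all genes. At an unadjusted p under 0.05, 6.87% and 4.94% of all genes were higher. In the lower direction these were 920 of 13936 and 708 of 13875 genes. Of 30 further ER folding factors, all tested, 20 had a log2 fold change above 0 in frontal cortex (median 0.061) and 22 in striatum (median 0.041). With edgeR's quasi-likelihood test 0 passed in either region, as with the likelihood ratio test, DESeq2 and limma-voom, and 8 in frontal cortex and 3 in striatum had an unadjusted p under 0.05, of which 7 and 3 were higher. Dnajc3 and Dnajb11, co-chaperones of BiP, had the smallest p of this list in both regions. Dnajc3 had in frontal cortex a log2 fold change of 0.16 ± 0.046 (adjusted p = 0.137) and 0.18 ± 0.058 in striatum (adjusted p = 0.331). Without library 11, Dnajc3 passed in frontal cortex (log2 fold change 0.205, adjusted p = 0.0251). With any other library left out there Dnajc3 did not pass (adjusted p up to 0.266). Dnajb11 had 0.12 ± 0.035 and 0.125 ± 0.040 (adjusted p = 0.142 and 0.331). Other partners of BiP on this list, in frontal cortex and striatum, were Hyou1 (0.115 and 0.049), Dnajc1 (0.12 and -0.015) and Dnajb9 (0.017 and 0.045). Dnajc10 had -0.00056 and 0.040, and Sil1 had -0.016 and 0.00076. Among the genes of smallest p were also Erp44, which retains client proteins in the early secretory pathway (0.11 ± 0.038 in frontal cortex, adjusted p = 0.221), and the prolyl isomerase Fkbp14 (0.16 ± 0.054 in striatum, adjusted p = 0.356).

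Of the translocon and N-glycosylation genes, which thread new proteins into the ER and attach their sugars, 25 of 28 had a log2 fold change above 0 in frontal cortex (median 0.046) and 23 of 28 in striatum (median 0.049). None passed with edgeR's quasi-likelihood test, while 9 had an unadjusted p under 0.05 in frontal cortex, all higher, and 4 in striatum, 3 of them higher. DESeq2 called 2 in frontal cortex, Rpn1 and Ddost, and 0 in striatum, and the likelihood ratio test and limma-voom called 0 in both regions. The ribophorin Rpn1, a subunit of the oligosaccharyltransferase, had 0.11 ± 0.026 in frontal cortex (adjusted p = 0.0741) and 0.09 ± 0.030 in striatum (adjusted p = 0.331). In frontal cortex the subunits Ddost (0.12 ± 0.028, adjusted p = 0.0839) and Ostc (0.13 ± 0.043, adjusted p = 0.194) followed, and in striatum Rpn2 (0.11 ± 0.045, adjusted p = 0.431) and the signal recognition particle receptor gene Srpr (0.12 ± 0.055, adjusted p = 0.483).

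KDEL receptors and the COPI coat return escaped chaperones from the Golgi to the ER. Of this list, 15 of 17 genes tested had a log2 fold change above 0 in each region (medians 0.032 and 0.063). With edgeR's quasi-likelihood test 0 passed, and 1 gene in frontal cortex and 4 in striatum had an unadjusted p under 0.05, all higher. DESeq2 called Tmed10 in striatum, and the likelihood ratio test and limma-voom called 0. The coat subunit Copz1 (0.13 ± 0.035, adjusted p = 0.122) had the smallest p in frontal cortex, ahead of Tmed10 (0.06 ± 0.029, adjusted p = 0.414) and Surf4 (0.06 ± 0.035, adjusted p = 0.511). In striatum it was the cargo receptor Tmed10 (0.11 ± 0.030, adjusted p = 0.253), followed by Gbf1 (0.11 ± 0.036, adjusted p = 0.331) and Copb2 (0.12 ± 0.040, adjusted p = 0.364).

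The genes of ER-associated degradation, which export misfolded proteins for destruction, were divided, with 12 of 25 above 0 in frontal cortex (median -0.0020), and 18 of 26 in striatum (median 0.013). With edgeR's quasi-likelihood test 0 passed, and at an unadjusted p under 0.05 there were 2 lower genes in frontal cortex and 4 higher genes in striatum. The likelihood ratio test and DESeq2 called Herpud1 in frontal cortex, DESeq2 called Sel1l in striatum, and limma-voom called 0. Herpud1, itself a classical target of the unfolded protein response, had in frontal cortex a log2 fold change of -0.19 ± 0.050 (adjusted p = 0.107), and the mannosidase-like Edem1 had -0.13 ± 0.059 (adjusted p = 0.354). The ubiquitin-conjugating enzyme Ube2g2 had 0.07 ± 0.033 there (adjusted p = 0.375). In striatum, Sel1l (0.13 ± 0.031, adjusted p = 0.174), Derl2 (0.10 ± 0.032, adjusted p = 0.295) and Derl3 (0.36 ± 0.14, adjusted p = 0.422), all parts of the export machinery, had the smallest p.

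The sensors and transcription factors of the response had 0 members past the test in either region by edgeR's quasi-likelihood test, the likelihood ratio test, DESeq2 or limma-voom, with 1 gene in frontal cortex and 3 in striatum at an unadjusted p under 0.05, and with 11 of 17 above 0 in frontal cortex (median 0.033) and 12 of 17 in striatum (median 0.014). Atf4, the factor made when PERK is active, had in frontal cortex a log2 fold change of -0.07 ± 0.035 (adjusted p = 0.376) and -0.20 ± 0.068 in striatum (adjusted p = 0.356). Creb3l2, a relative of Atf6, had 0.16 ± 0.059 in frontal cortex (adjusted p = 0.249), and Yy1 had -0.07 ± 0.034 (adjusted p = 0.408). In striatum, Atf6 had 0.15 ± 0.052 (adjusted p = 0.362) and Mbtps2, a protease that releases it, 0.14 ± 0.042 (adjusted p = 0.294). These values are RNA levels, and the activity of the sensors and factors was not measured.

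Of the ATF4 and CHOP targets, 9 of 26 had a log2 fold change above 0 in frontal cortex (median -0.035) and 11 of 28 in striatum (median -0.048). The shares of all genes were 50.4% and 50.2%. With edgeR's quasi-likelihood test 0 passed in either region, and 4 genes in frontal cortex and 3 in striatum, all lower, had an unadjusted p under 0.05. Ddit4, an inhibitor of mTOR signalling, had -0.54 ± 0.12 in frontal cortex (adjusted p = 0.0651) and -0.61 ± 0.16 in striatum (adjusted p = 0.209). The likelihood ratio test and DESeq2 called Ddit4 in both regions and limma-voom in neither, and with the quasi-likelihood test it passed in frontal cortex without library 1 or library 2 (-0.625 and -0.62, adjusted p = 0.0239 and 0.0343). With any other library left out there Ddit4 did not pass (adjusted p up to 0.159). Cebpg (-0.13 ± 0.037, adjusted p = 0.144) and Vldlr (-0.125 ± 0.045, adjusted p = 0.244) came next in frontal cortex. In striatum these were Shmt2 (-0.17 ± 0.055, adjusted p = 0.331) and Aldh18a1 (-0.09 ± 0.037, adjusted p = 0.438), enzymes of serine and proline metabolism.

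Cytosolic heat shock chaperones, which fold proteins outside the ER, were the only list besides the 10 genes with members past the test. In frontal cortex 21 of 25 had a log2 fold change above 0 (median 0.057), and 3 of 25 passed, against 0.380% of all genes. These 3 rose, Hsph1 (0.215 ± 0.030, adjusted p = 0.00807), Stip1 (0.19 ± 0.029, adjusted p = 0.0140) and Hspa8 (0.18 ± 0.032, adjusted p = 0.0301). Hsph1 is a nucleotide exchange factor of Hsp70 proteins, Stip1 joins Hsp70 to Hsp90, and Hspa8 is the constitutive Hsp70. Hsph1 passed under every alternative tried. Stip1 did not pass without library 9 or library 10 (adjusted p = 0.0545 and 0.0600), and Hspa8 did not without any 1 of libraries 4, 6, 8, 9, 10, 11 or 12 (adjusted p 0.0567 to 0.0961). With the meningeal fibroblast markers as a further term, Stip1 had a log2 fold change of 0.19 (adjusted p = 0.0692) and Hspa8 of 0.155 (adjusted p = 0.139). In striatum 16 of 24 were above 0 (median 0.065), and 0 passed with edgeR's quasi-likelihood test, the likelihood ratio test or limma-voom. At an unadjusted p under 0.05, 8 were higher, against 4.94% of all genes, and 1 was lower, and DESeq2 called Hsp90aa1 and Hspa4l. Hsp90aa1 (0.20 ± 0.048, adjusted p = 0.174), Hspa4l (0.24 ± 0.058, adjusted p = 0.174) and Hspa4 (0.16 ± 0.045, adjusted p = 0.268) had the smallest p there. The ER chaperone median (0.16 and 0.19) was above that of each of the 7 lists in both regions. Both the 10 genes and the lists were chosen with earlier results of these data known, so this order is only a description.

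**Figure D4:**
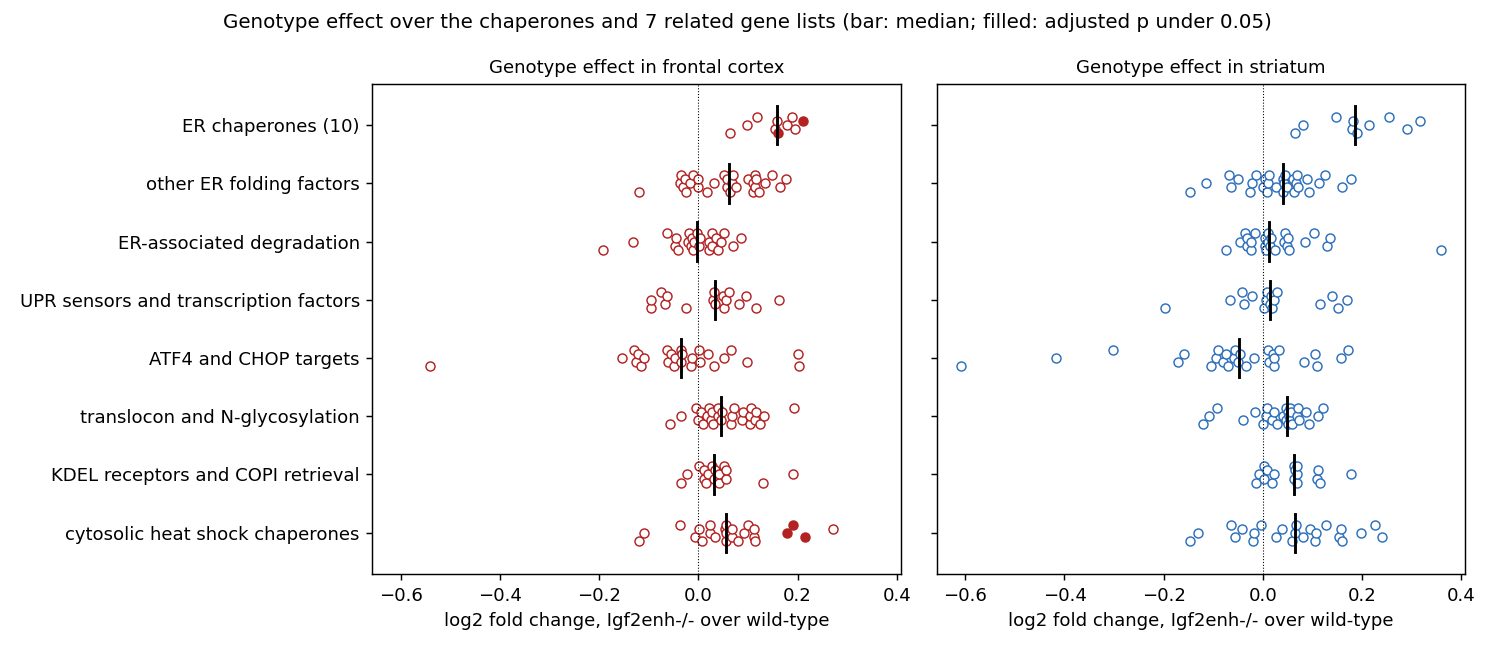
Log2 fold change (x axis, Igf2enh-/- over wild-type) of every tested gene of the 10 ER chaperones and of the 7 lists (y axis), in frontal cortex (left) and striatum (right). Black bars are medians and filled points passed an adjusted p of 0.05. The medians of the ER chaperones are 0.16 and 0.19, and those of the other lists lie between -0.048 and 0.065.

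Between regions in wild-type mice, 12 of 30 ER folding factors were higher and 7 lower in striatum, a share no larger than the 67.7% of all genes. The other disulfide isomerases of this list included Pdia5 (log2 fold change 1.02 ± 0.088, adjusted p = 3.73e-10) and P4hb, which encodes the prototype of the family (0.39 ± 0.041, adjusted p = 6.48e-09). The values of Pdia5 and P4hb stand against -0.25 for Pdia6 and -0.165 for Pdia3. Relatives of this family on the list were divided. Txndc5 was higher in striatum (0.265 ± 0.042, adjusted p = 5.23e-06) and Erp44 lower (-0.19 ± 0.037, adjusted p = 8.61e-05). Txndc12 (0.092), Erp29 (0.030) and Dnajc10 (-0.057) did not pass. Of the cytosolic chaperones, 5 were higher and 14 lower in striatum of 23 tested, with Hsp90aa1 at -0.48 ± 0.044 (adjusted p = 7.05e-10).

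Genes that share the promoter element with the chaperones were then examined as a set drawn from sequence, a choice made after the genotype results were known. Outside the 10 genes, 10 tested genes in frontal cortex and 11 in striatum held the element in their window. Of these, 7 of 10 had a log2 fold change above 0 in frontal cortex (median 0.083) and 9 of 11 in striatum (median 0.093), and 0 passed the test. At an unadjusted p under 0.05, Dnajc3, Acacb, Ero1b and Adcy3 were higher and Spats2l lower in frontal cortex, and Dnajc3 and Derl3 were higher in striatum. Of all genes, 6.87% in frontal cortex and 4.94% in striatum were higher at that threshold. Among the 10 chaperones themselves, the 6 with the element had medians of 0.17 (frontal cortex) and 0.19 (striatum) for the log2 fold change, and the 3 without it, Pdia3, Pdia4 and Sdf2l1, had 0.16 and 0.21.

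Last, covariation between libraries was described on log2 CPM from which genotype and sex means had been removed, so that these correlations do not contain the genotype effect. Libraries of 1 region share handling and scaling, and the values are descriptions. In striatum (15 libraries) 44 of 45 pairs of chaperones had a Pearson's r above 0, with a median of 0.63, and in frontal cortex (12 libraries) 38 of 45 pairs with a median of 0.38. The closest pairs were Hsp90b1 with Pdia3 in striatum (r = 0.95, Spearman's rho = 0.95) and Pdia4 with Pdia6 in frontal cortex (r = 0.94, rho = 0.93). Canx stood apart in frontal cortex, with a median r of 0.13 to the other 9 genes and its lowest value with Manf (-0.47), while in striatum its median was 0.63. Sdf2l1 in frontal cortex had a median of 0.07 and in striatum of 0.56.

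**Figure D5:**
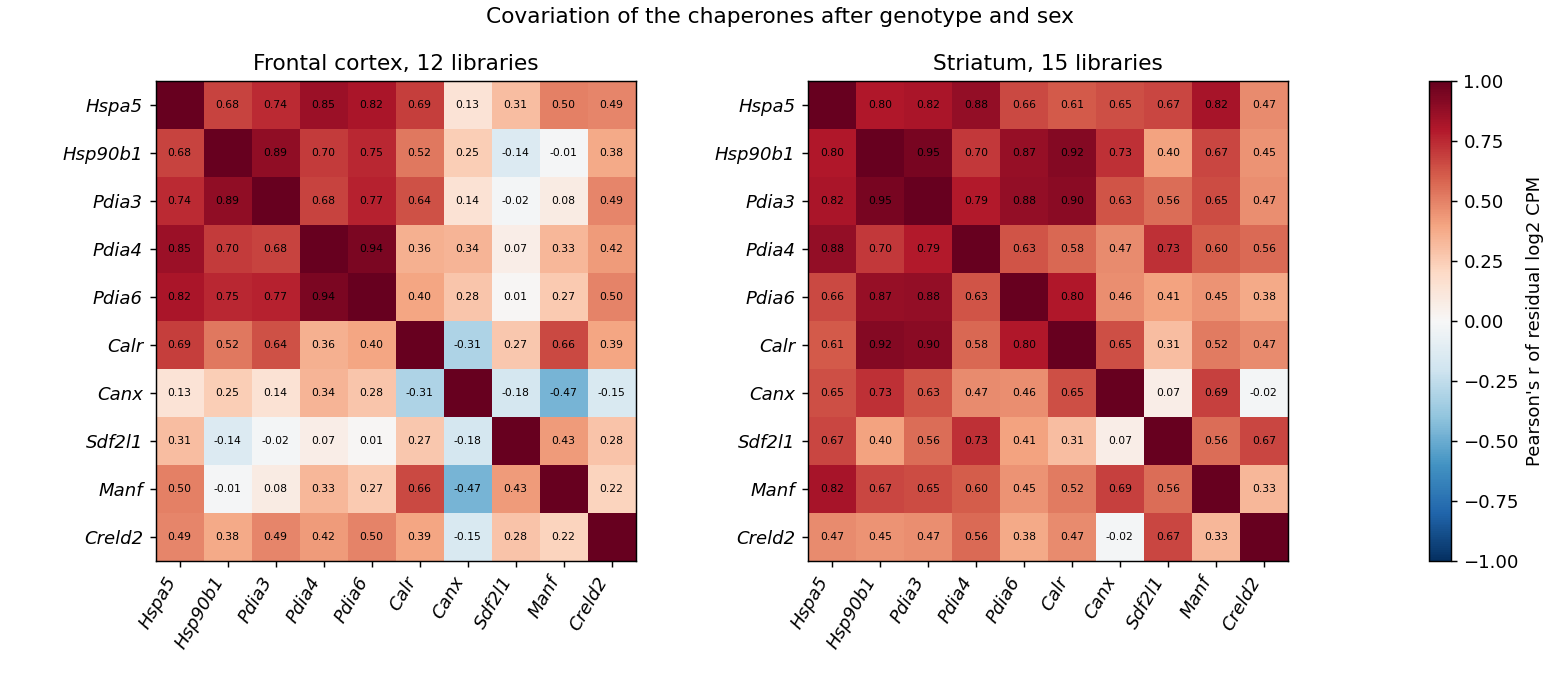
Pearson's r between the 10 genes (rows and columns) over residual log2 CPM after genotype and sex, in frontal cortex (left, 12 libraries) and striatum (right, 15 libraries), with the colour scale from -1 to 1. Hspa5, Hsp90b1, Pdia3, Pdia4 and Pdia6 form a block of values from 0.63 to 0.95 in both regions, and Canx, Sdf2l1 and Manf have values near or below 0 in frontal cortex.

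Taking Hspa5 as the reference, the gene whose profile was most like it, by the smaller r of the 2 regions among 13413 genes, was Pdia4 (r = 0.85 in frontal cortex and 0.88 in striatum). Pdia3 ranked 3, Hsp90b1 12, Pdia6 16 and Calr 31, whereas Canx ranked 2408. The 5 genes outside the chaperones that came highest were Patl1 (r = 0.79 and 0.83), a factor of mRNA decay, Bcl2 (0.77 and 0.74), an inhibitor of apoptosis, Mlec (0.74 and 0.72), an ER lectin that binds newly attached sugars, Dnajc3 (0.80 and 0.71), a co-chaperone of BiP, and Eif4ebp2 (0.71 and 0.76), a repressor of translation. Without the 2 libraries farthest from the median of Hspa5, r in frontal cortex was 0.54 for Patl1, 0.52 for Bcl2, 0.61 for Mlec, 0.66 for Dnajc3 and 0.55 for Eif4ebp2, and in striatum between 0.51 and 0.90. For Pdia4 it was 0.65 and 0.77.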

How the data were processed

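Per the labels, total RNA was depleted of ribosomal RNA, made into libraries with the KAPA RNA HyperPrep kit and sequenced as single-end reads. The submitters' processing notes name bcl2fastq 1.9.0, Trim Galore 0.5.0, STAR and the GRCm38 assembly. The authors deposited raw counts per gene, 1 table per region. The strand setting of the counting is not given in the sources used here, so reads of overlapping genes may be shared. Symbols were matched for 32688 of 52636 identifiers, of which 2628 were brought up to date from RefSeq synonyms.

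Levels are CPM (TMM over all 27 libraries). Exon lengths came from the GENCODE annotation of the older NCBIM37 assembly. Tests used edgeR 4.0.16 quasi-likelihood F-tests under R 4.3.3, with genotype and sex as terms within a region, and group and sex over both regions, on genes that reached 1 CPM in all libraries of the fit, Benjamini-Hochberg adjusted (threshold 0.05). Intervals are 95%. Alternatives used the likelihood ratio test, DESeq2 1.42.0, limma 3.58.1 (voom), other scalings, filters and covariates, and each library left out. The scripts were tested on simulated counts. The 10 genes, the 7 gene lists and the 9 marker lists were chosen with earlier results of these data known. From each list the text names the genes past the adjusted threshold (up to 5) and the 3 of smallest p per region. Of other genes it names the 5 most like Hspa5. Further genes were named after their values were seen (Pdia5, P4hb, Hyou1, Dnajb9, Dnajc1, Dnajc10, Sil1, Txndc5, Txndc12, Erp29, and those with the promoter element).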

Additional observations from a re-analysis of the deposited data

How the results depend on the processing

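The log2 fold change for genotype was above 0 for all 10 chaperones in both regions under every alternative run, with medians from 0.128 to 0.18 in frontal cortex and from 0.159 to 0.206 in striatum, while the number past the adjusted threshold moved. In frontal cortex, 2 of the 10 and 53 of all genes were called with edgeR's quasi-likelihood test, against 4 and 232 with the likelihood ratio test, 4 and 247 with DESeq2, 5 and 459 with no filter beyond 1 count, 1 and 29 with the RNA integrity number as a term, and 0 and 9 with the meningeal fibroblast markers as a term. With 1 library left out at a time, from 0 to 3 of the 10 and from 8 to 99 of all genes passed there. In striatum, 0 of the 10 and 5 of all genes were called, against 1 and 56 with the likelihood ratio test and 3 and 112 with DESeq2. Of all genes in striatum, 3 were called with limma-voom, 13 with edgeR's own expression filter, 10 with no filter beyond 1 count, 3 without the sex term and 3 with the choroid plexus markers as a term. Leaving out 1 library gave 0 to 1 of the 10 and 3 to 8 of all genes. Between regions, 4 to 5 of the 10 were called in wild-type mice and 3 to 5 in Igf2enh-/- mice. The region by genotype term passed for 0 chaperones in every fit, and 5 to 8 of the 10 terms were above 0 when 1 library was left out. Its sign changed without 1 library for Hsp90b1 (-0.00858 to 0.0484), Pdia3 (-0.00279 to 0.0391), Canx (-0.00532 to 0.0284) and Creld2 (-0.0834 to 0.000979). The cause of these shifts was not tested. Alternatives for the sex effect and the genotype by sex term were chosen after seeing the data, and each called 0 of the 10. No paired analysis was possible because the labels do not say which libraries came from the same mouse, and no replicate number is shared between groups. Counting error weighs most on Sdf2l1, with 161 to 255 counts a library in wild-type striatum, and how much of its spread came from depth was not tested. The precision of each fold change also rests on 6 to 8 libraries a group.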
